A study of Mus musculus with 34 samples.

Results

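The carbon nanotube material NRCWE-043, known here only by its code, was given to mice at 54 or at 18 µg, and the lungs on the 5 arrays at 54 µg are compared here with those on the 5 arrays at 18 µg, a 3-fold smaller dose. The 10 arrays were taken by the treatment and dose in their labels, out of 34 arrays in the series. All 10 came from female C57BL/6 mice, 5 to 7 weeks old, that had 1 intratracheal instillation in 40 µl, and the lungs were taken at day 28. The 5 control lungs, which set the zero of the scale and give a control range, came from mice of the same strain, sex and age whose vehicle the labels do not state. One of the 5 is titled as NRCWE-043 at 0 µg and was taken as a control by its treatment label. No group carries an altered gene. The other 19 arrays hold the same doses of the materials NRCWE-044 and NRCWE-045. Nothing in the labels says which arrays came from separate animals, so the p-values measure the spread between these arrays.

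Poorly soluble particles that stay in the lung are taken up by alveolar macrophages, which release chemokines that draw in neutrophils and monocytes. Interferons, secreted by infected or stimulated cells, act through a factor that holds Irf9 to turn on antiviral genes such as the Oas, Ifit and Isg15 genes. In lung tissue these genes are switched on by viruses, by nucleic acids and by some particles. Because whole lung was measured, fewer cells of a type and less RNA per cell cannot be told apart.

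Each array held lung RNA (200 ng) labelled with Cy5 beside a reference RNA from 11 mouse cell lines labelled with Cy3. In the Cy5 channel the share of probes well above background was 56.2 to 63.3% at 54 µg and 50.8 to 66.6% at 18 µg. All 22 alveolar type 2 cell genes and all 28 endothelial genes on the lists were measured. So were all 24 cardiac muscle genes, so being measured does not test the labelled tissue. Slide, whose arrays shared a scan day, took up most of the first 2 principal components of the 10 arrays (33.3 and 17% of the variance). R² was 0.919 and 0.97 with slide, and 0.0905 and 0.0769 with dose. Slide has more levels than dose, which by itself raises its R². The 54 µg arrays sat on slides 1, 2, 3, 4 and 6 and the 18 µg arrays on slides 1, 2, 2, 3 and 6, in the order of their replicate numbers, so both doses met on 4 slides. The 54 µg replicate 1 array stood apart from its group in interferon and chemokine genes, and the 18 µg replicate 3 array in macrophage genes. Values without 1 or the other are given beside many of the results.

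The question was which lung genes differed between the doses. In limma no unit (a named gene, or a transcript without a name) passed an adjusted p of 0.05, 0 of 29331, with 0.9999 the smallest adjusted p. At an unadjusted p under 0.05 there were 915 units (3.12%), of which 469 (1.6%) had higher means at 54 µg and 446 (1.52%) lower ones. From the scanner software's processed signals that split was 372 higher and 753 lower. With slide as a block 0 units passed and 1463 (4.99%) were at an unadjusted p under 0.05. The difference, in log2 units 54 minus 18 µg, had a median of 0.0021 over all units, and 50.8% of the units lay above 0. A difference of at least 1.5-fold upward was seen in 106 units (0.361%) and downward in 7 (0.0239%). For 90.9% of the units the 95% confidence interval of the difference lay within 1.5-fold either way.

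**Figure D1:**
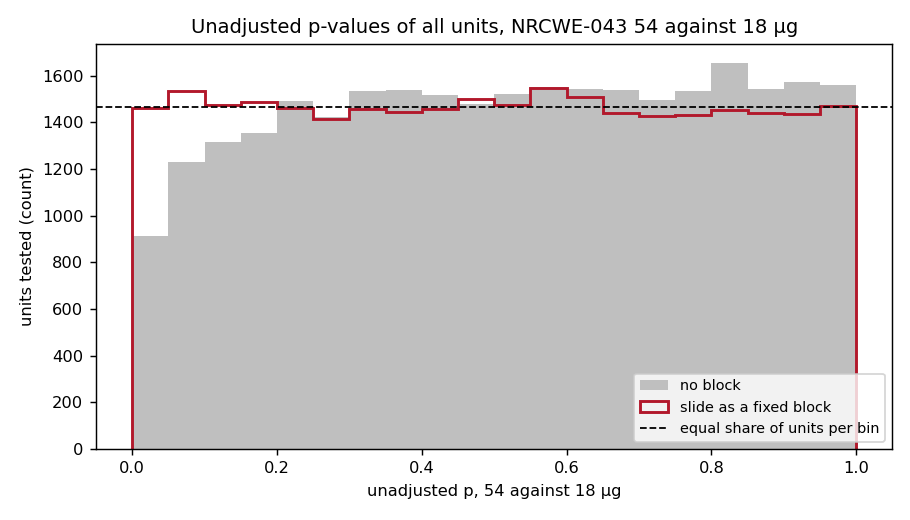
Histogram of the unadjusted p-values of the 29331 units in the comparison of 54 with 18 µg, in bins of 0.05, without a block (grey) and with slide as a block (red outline). The vertical axis counts units and the dashed line marks an equal share per bin. The lowest bin holds 915 units without the block and 1463 with it.

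Interferon-stimulated genes led the upper end of the comparison. Of 36 genes on the list 34 had a probe and 32 were tested, and 30 of the 32 had a higher mean at 54 than at 18 µg, with a median log2 difference of 0.52 against 0.0021 for all units. An unadjusted p under 0.05 with a higher mean was reached by 22 of the 32, against 1.6% of all units, and 0 of the 32 passed the adjusted threshold. In 5 of the 32, namely Oas2, Oas1a, Trim30a, Irf9 and Oasl2, every 54 µg array lay above every 18 µg array, which held for 0.188% of all units. The earlier results of these data were known when the list was drawn up.

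The stretch just before the start of 6 of these genes is shown because a known element for interferon-activated factors, GAAA followed by any 2 bases and GAAA again, lies in such stretches. They are the tested members with the smallest p that the RefSeq promoter table (build GRCm38.p6) holds, and 25 of the 32 were in it. Each runs over the 150 bases before the most upstream listed start, on the gene's own strand, with matches to that element, or to its reading on the other strand (TTTC, any 2 bases, TTTC), in capitals. Neighbouring matches may overlap.
Trim30a (chr7:104465194-104465343, minus strand): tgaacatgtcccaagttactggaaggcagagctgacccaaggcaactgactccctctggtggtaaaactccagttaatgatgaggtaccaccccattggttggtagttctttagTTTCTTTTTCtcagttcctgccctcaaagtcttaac
Oas1a (chr5:120907526-120907675, minus strand): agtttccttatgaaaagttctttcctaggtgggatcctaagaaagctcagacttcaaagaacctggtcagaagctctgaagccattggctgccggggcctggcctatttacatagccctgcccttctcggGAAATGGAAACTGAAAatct
Irf9 (chr14:55603835-55603984, plus strand): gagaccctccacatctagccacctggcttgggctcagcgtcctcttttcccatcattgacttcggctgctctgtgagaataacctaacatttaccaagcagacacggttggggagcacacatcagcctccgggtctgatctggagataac
Ifit1 (chr19:34640739-34640888, plus strand): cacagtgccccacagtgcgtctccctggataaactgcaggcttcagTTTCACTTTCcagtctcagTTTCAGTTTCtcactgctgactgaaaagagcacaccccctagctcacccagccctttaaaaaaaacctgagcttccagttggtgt
Oasl2 (chr5:114896784-114896933, plus strand): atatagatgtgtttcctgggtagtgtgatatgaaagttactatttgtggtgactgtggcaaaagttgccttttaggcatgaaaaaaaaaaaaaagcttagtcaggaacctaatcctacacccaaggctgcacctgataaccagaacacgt
Isg15 (chr4:156200819-156200968, minus strand): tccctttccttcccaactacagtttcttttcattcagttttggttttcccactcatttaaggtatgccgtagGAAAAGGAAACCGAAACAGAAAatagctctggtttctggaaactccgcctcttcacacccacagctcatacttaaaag

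Ifit1 and Oas1a held 2 matches each, Isg15 held 3 and Trim30a 1, while Irf9 and Oasl2 had 0 in this window. A match was held by 10 (40.0%) of the 25 interferon-stimulated genes with a listed promoter, against 432 of 27025 genes (1.6%) with a promoter listed. A match is a run of letters and does not show that a factor binds there.

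Values per array are given as the log2 level relative to the mean of the 5 control lungs. Oas2, an RNA-sensing oligoadenylate synthetase, stood at 2.37, 0.68, 0.80, 0.67 and 0.85 in the 54 µg lungs, against 0.16, 0.13, -0.40, 0.12 and -0.16 in the 18 µg lungs. Replicate 1 of the 54 µg group was far above the rest, and the groups did not overlap. The mean difference was 1.11 ± 0.26 (SE, 5 arrays against 5), a 2.15-fold higher level (95% interval 0.58 to 1.64 in log2 units, limma, unadjusted p = 0.000179, adjusted p = 0.9999). Its relative Oas1a stood at 2.78, 0.28, 0.56, 1.08 and 0.96 in the 54 µg lungs, against -0.11, 0.27, 0.24, -0.29 and -0.32 in the 18 µg lungs. The lowest 54 µg array and the highest 18 µg array differed only in the second decimal. Its difference was 1.18 ± 0.32, and a second probe gave 0.86. Oas genes are similar in sequence, so a probe may read a neighbour.

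Usp18, which strips Isg15 from proteins and damps the interferon receptor, stood at 1.56, 0.15, 0.46, 0.55 and 0.61 in the 54 µg lungs, against 0.03, 0.17, -0.00, -0.11 and 0.01 in the 18 µg lungs. Only the 54 µg replicate 2 array fell inside the 18 µg range. Its difference was 0.64 ± 0.16 (limma, unadjusted p = 0.000377, adjusted p = 0.9999). Trim30a, a member of the tripartite motif family, stood at 1.24, 0.33, 0.45, 0.21 and 0.62 in the 54 µg lungs, against -0.01, 0.07, -0.11, 0.02 and -0.08 in the 18 µg lungs. The groups were apart, with a difference of 0.59 ± 0.15. Irf9, the DNA-binding subunit of the factor that interferon activates, stood at 0.62, 0.11, 0.04, 0.25 and 0.28 in the 54 µg lungs, against -0.07, -0.01, -0.06, -0.12 and -0.12 in the 18 µg lungs. Again the groups were apart, with a smaller difference of 0.34 ± 0.09.

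The antiviral effector Ifit1, which binds foreign RNA, stood at 2.05, -0.23, 0.22, 0.58 and 0.46 in the 54 µg lungs, against 0.01, -0.34, -0.23, -0.27 and -0.23 in the 18 µg lungs. All but the 54 µg replicate 2 array lay above the 18 µg lungs, and the difference was 0.83 ± 0.25. Without the 54 µg replicate 1 array the differences were 0.78 for Oas2, 0.76 for Oas1a, 0.42 for Usp18, 0.42 for Trim30a, 0.25 for Irf9 and 0.47 for Ifit1. Oasl2, an Oas relative with ubiquitin-like domains, differed by 0.76 ± 0.24 and the receptor chaperone Rtp4 by 0.65 ± 0.21. Outside the list, Ifi27l2a, a small interferon-inducible membrane protein, differed by 1.28 ± 0.39, the schlafen gene Slfn8 by 0.70 ± 0.21 (0.31 by another probe) and the ubiquitin ligase Dtx3l by 0.40 ± 0.11 (0.20 by another probe). These 3 were among the 12 named genes with the smallest p and a higher mean at 54 µg, as was Sh3bgrl2 at 0.32 ± 0.09 (3 other probes gave 0.03 to 0.25). Without the 54 µg replicate 1 array, Oasl2 differed by 0.45, Ifi27l2a by 0.86 and Slfn8 by 0.44. The other 8 of those 12 are the interferon-list members described so far.

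Further members are named after their values were seen. The ubiquitin-like modifier Isg15 differed by 0.97 ± 0.31 (0.60 by another probe), the membrane-bound antiviral enzyme Rsad2 by 0.78 ± 0.28 and the interferon regulator Irf7 by 0.65 ± 0.27. Without the 54 µg replicate 1 array these 3 differed by 0.54, 0.45 and 0.32. The list's 2 members below 0 were the GTPase Gbp2 at -0.03 ± 0.15 and Ifi35 at -0.01 ± 0.13, and both changed sign under other settings. Cxcl10, an interferon-induced attractant of T cells, had a difference of 0.77 ± 0.45, with 2.61, 0.50, -0.40, 0.13 and 0.23 in the 54 µg lungs, against 0.89, -0.26, 0.03, -0.53 and -0.88 in the 18 µg lungs. The Cxcl10 difference was 0.27 without the 54 µg replicate 1 array.

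**Figure D2:**
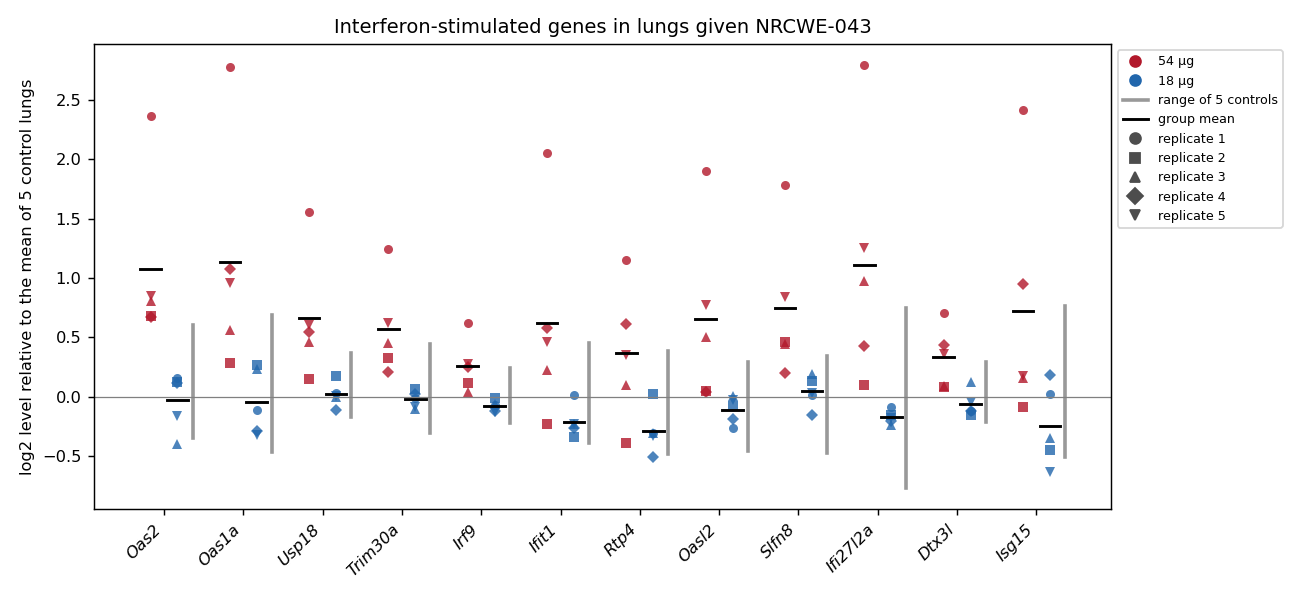
Log2 level of 12 interferon-stimulated genes relative to the mean of the 5 control lungs (vertical axis), for the 5 arrays at 54 µg (red, left) and the 5 at 18 µg (blue, right) of each gene. Symbols mark replicates, black bars group means and grey lines the range of the controls. The 54 µg replicate 1 array is the highest point of every gene, from 0.62 for Irf9 to 2.79 for Ifi27l2a.

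The mean log2 level of the 32 tested interferon genes was 1.33, 0.03, 0.16, 0.35 and 0.32 in the 54 µg lungs, against 0.00, -0.01, -0.05, -0.12 and -0.15 in the 18 µg lungs, with controls from -0.28 to 0.38. The 54 µg replicate 1 lung alone exceeded all controls, and the 18 µg lungs all lay within the control range. Without that array the median difference of the list was 0.27 in place of 0.52, and 29 of 32 genes lay above 0. In limma 9 then reached an unadjusted p under 0.05, against 2.45% of all units. Without any other single array the median ran from 0.48 to 0.65. With slide as a block the median was 0.48, with 31 of 32 above 0 and 23 at an unadjusted p under 0.05, against 4.99% of all units. Within slides the list's median difference was 1.24 on slide 1, which holds the 54 µg replicate 1 array, and 0.05, 0.30 and 0.47 on slides 2, 3 and 6.

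Against the shared control lungs, which both differences use, the list had a median of 0.36 at 54 µg and -0.04 at 18 µg. The step between the doses was set beside that of the other materials. With NRCWE-044 the list's median step from 18 to 54 µg was 0.15, with 28 of 32 above 0 against 49.7% of all units. With NRCWE-045, where the 18 µg group held only 3 arrays, it was -0.10, with 5 of 32 above 0 against 48.8%. Oas2 had a step of 0.83 ± 0.25 with NRCWE-044 and -0.35 ± 0.30 with NRCWE-045. The difference of its steps between NRCWE-043 and NRCWE-045 had an unadjusted p of 0.000909 in limma and an adjusted p of 0.9995. Over all units, 0 differences of steps passed the adjusted threshold against NRCWE-044 (820 at an unadjusted p under 0.05, 2.8%) and 0 against NRCWE-045 (870, 2.97%). Among the 32 interferon genes, 2 and 18 were at an unadjusted p under 0.05 in limma. Both counts include the NRCWE-043 54 µg replicate 1 array, and the second rests on the 3 NRCWE-045 arrays at 18 µg.

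Markers of infiltrating myeloid cells were read beside these genes. Of 20 tested genes of monocytes and interstitial macrophages 16 lay above 0, with a median difference of 0.19. Their mean level was 0.71, -0.07, 0.18, 0.15 and 0.30 in the 54 µg lungs, against 0.16, -0.05, 0.08, 0.01 and 0.05 in the 18 µg lungs. The groups overlapped, the 54 µg replicate 1 array was highest as it was for the interferon genes, and without it the median was 0.09. Within slides the list's median was 0.54, -0.14, 0.20 and 0.26 on slides 1, 2, 3 and 6, so its sign was not shared. Ms4a7, a surface protein of tissue macrophages, differed by 0.61 ± 0.26, the complement subunit C1qc by 0.37 ± 0.16 and the macrophage actin-binding protein Aif1 by 0.43 ± 0.20. Ms4a7 differed by 0.39, C1qc by 0.27 and Aif1 by 0.28 when the 54 µg replicate 1 array was left out. The part of these cells in the interferon difference was not tested.

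Chemokines, the attractants that bring leukocytes into tissue, had higher means at 54 µg in most cases. Of 18 tested CC chemokines and receptors 17 lay above 0, with a median of 0.31, and without the 54 µg replicate 1 array the median was 0.15. Ccl2, the main attractant of monocytes, stood at 2.49, 0.55, 0.25, 0.83 and -0.03 in the 54 µg lungs, against 0.46, -0.38, 0.89, 0.27 and -0.32 in the 18 µg lungs. The groups overlapped and the difference was 0.63 ± 0.31. Its relatives differed by 0.68 ± 0.31 for Ccl12, 0.73 ± 0.40 for Ccl7 and 0.75 ± 0.44 for Ccl8. Without the 54 µg replicate 1 array Ccl2, Ccl12, Ccl7 and Ccl8 differed by 0.21, 0.38, 0.29 and 0.37, and without the 18 µg replicate 3 array Ccl7 differed by 1.11. The 1 member below 0 was Ccl24, which draws eosinophils, at -0.56 ± 0.36, where the 18 µg replicate 3 array stood at 2.63 and without that array the difference was -0.04. Within slides the median of the list was 0.82, 0.19, 0.18 and 0.27 on slides 1, 2, 3 and 6.

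A list of 15 lung response genes was read whole, and 15 of 15 had a higher mean at 54 than at 18 µg. Of the 15, 13 were well above background on all 10 arrays, and for the rest low values may be only bounds. Cxcl5, an epithelial attractant of neutrophils, stood at 4.99, 0.97, 0.51, 3.55 and -0.33 in the 54 µg lungs, against -0.38, 0.75, 1.88, 0.45 and -0.14 in the 18 µg lungs. The 54 µg replicates 1 and 4 were above all others and the remaining arrays overlapped. The difference was 1.43 ± 0.70 (95% interval -0.01 to 2.86). Saa3, an acute phase apolipoprotein of inflamed lung, stood at 4.31, 0.69, 0.48, 1.91 and 0.41 in the 54 µg lungs, against 0.45, -0.04, 1.83, 0.79 and -0.44 in the 18 µg lungs. Its difference was 1.04 ± 0.51, and without the 54 µg replicate 1 array it was 0.36, with Cxcl5 at 0.66.

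The other 13 of these genes had differences from 0.07 to 0.73. Ccl7 and Ccl2 have been given. The B cell attractant Cxcl13 had 0.64 ± 0.53, the iron-trapping protein Lcn2 0.40 ± 0.29, the heme oxygenase Hmox1 0.34 ± 0.19 (-0.16 by another probe) and the protease inhibitor Timp1 0.32 ± 0.19. The neutrophil attractant Cxcl1 had 0.24 ± 0.39 and the matrix protein Spp1 0.24 ± 0.22. Arg1, an enzyme of alternatively activated macrophages, had 0.13 ± 0.32, the collagen Col1a1 0.11 ± 0.20, the macrophage elastase Mmp12 0.11 ± 0.13, and the cytokines Tnf and Il1b 0.10 ± 0.16 and 0.07 ± 0.31. The 13 differences ran, without the 54 µg replicate 1 array, from -0.12 for Il1b to 0.36 for Cxcl13. Of these, Cxcl1 was 0.66 and Il1b 0.0080 without the 18 µg replicate 3 array. The median of the 15 was 0.32. Without the 54 µg replicate 1 array it was 0.12, with 14 of 15 above 0. Within slides it was 1.04 on slide 1 and 0.00, -0.11 and 0.28 on slides 2, 3 and 6.

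Ly6i and Ly6f, near-identical neighbours of the Ly6 surface protein family that a probe may not separate, were among the 5 largest upward differences of named genes well above background on all 10 arrays. Ly6i stood at 4.01, 0.65, -0.31, 2.13 and 0.41 in the 54 µg lungs, against -0.21, -0.08, 0.73, -0.28 and -0.36 in the 18 µg lungs. As with Cxcl5, the 54 µg replicates 1 and 4 were highest, and the difference was 1.42 ± 0.51. Without the 54 µg replicate 1 array it was 0.76. Ly6f differed by 1.25 ± 0.45, or by 0.62 without that array. The other 3 of the 5 were Cxcl5, Ifi27l2a and the atrial myosin chain Myl4 (1.40 ± 1.20).

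**Figure D3:**
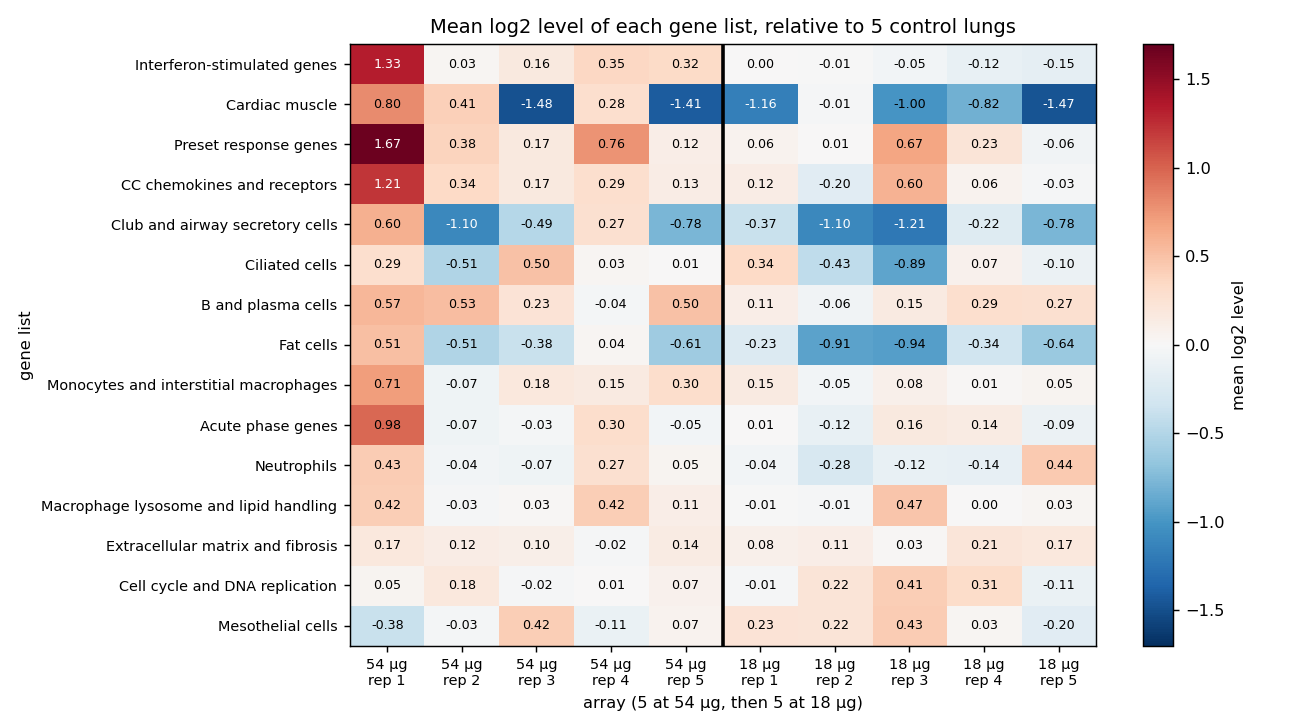
Heat map of the mean log2 level of 15 gene lists (rows, by median difference) relative to the 5 control lungs, in the 5 arrays at 54 µg (left of the black line) and the 5 at 18 µg (right). Red is above and blue below the controls. The 54 µg replicate 1 column is the reddest in the interferon, response, chemokine and acute phase rows, at 1.33, 1.67, 1.21 and 0.98.

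Tissue that the random lung sections may hold differed between arrays of the same dose. Of 24 tested cardiac muscle genes, 11 of them well above background on all 10 arrays, 22 lay above 0, with a median of 0.51. Their mean level was 0.80, 0.41, -1.48, 0.28 and -1.41 in the 54 µg lungs, against -1.16, -0.01, -1.0, -0.82 and -1.47 in the 18 µg lungs. The 54 µg replicates 1, 2 and 4 were high and the other 54 µg arrays lay at the low end. In limma 0 of the 24 were at an unadjusted p under 0.05, against 3.12% of all units. The atrial hormone gene Nppa had a difference of 1.26 ± 0.88 and the oxygen carrier Mb, which is on the skeletal muscle list too, 1.20 ± 1.03 (0.69 without the 54 µg replicate 1 array). The skeletal muscle list had 5 of 12 above 0 and a median of -0.02. The cardiac median was 0.26 without the 54 µg replicate 1 array, 0.90 and 0.87 without replicates 3 and 5, and 0.81 without the 18 µg replicate 2 array. Of 20 genes of fat cells, 13 of them well above background on all 10 arrays, 14 lay above 0 with a median of 0.23. Their mean level was -0.61 to 0.51 at 54 µg and -0.94 to -0.23 at 18 µg. The fat cell median was 0.11 without the 54 µg replicate 1 array. For the remaining cardiac and fat genes, low values may be only bounds. The complement protease Cfd, abundant in fat, differed by 2.25 ± 1.46 and the fat enzyme Car3 by 1.47 ± 1.20.

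Airway genes also varied between arrays of the same dose. Of 24 ciliated cell genes 23 lay above 0, with a median of 0.28. Their mean level was 0.29, -0.51, 0.50, 0.03 and 0.01 in the 54 µg lungs, against 0.34, -0.43, -0.89, 0.07 and -0.10 in the 18 µg lungs. The groups overlapped, and without the 18 µg replicate 3 array the median was 0.11. It was 0.17 without the 54 µg replicate 3 array, 0.46 without the 54 µg replicate 2 array and 0.45 without the 18 µg replicate 1 array. Within slides the ciliated median was -0.09, 0.13, 0.39 and 0.12 on slides 1, 2, 3 and 6. The tubulin Tubb4b differed by 0.24 ± 0.10, and the cilium proteins Tekt1 and Rsph1 by 0.41 ± 0.19 and 0.40 ± 0.21 (0.31 and 0.09 by another probe, and 0.23 each without the 18 µg replicate 3 array). Of 20 club and airway secretory genes 12 lay above 0 and 0 were at an unadjusted p under 0.05 in limma, against 3.12% of all units. Their median was 0.29, but 0.09 on slide 1 and -0.10, -0.18 and -0.08 on slides 2, 3 and 6. It was 0.09, 0.49 and 0.10 without the 54 µg replicates 1, 2 and 3, 0.12 and 0.08 without the 18 µg replicates 2 and 3, and 0.17 with slide as a block. Reg3g, an antimicrobial lectin, and the secreted Bpifb1 differed by 2.21 ± 1.56 and 1.12 ± 0.82, or by 1.11 and 0.54 without the 54 µg replicate 1 array. Clca1, a mucus-associated protein of the type 2 immunity list, stood at 4.44, -3.11, -3.15, 4.17 and -3.62 in the 54 µg lungs, against -3.65, -3.33, -2.76, -0.93 and -3.53 in the 18 µg lungs. Its difference was 2.59 ± 1.62, or 1.42 and 1.48 without the 54 µg replicates 1 and 4. Clca1 was well above background on 3 of the 5 arrays at 54 µg and 2 of the 5 at 18 µg, and elsewhere its values are only bounds. Whether these tissue differences contribute to the other gene groups was not tested.

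Of 24 genes of B and plasma cells 20 lay above 0, and the median difference was 0.25. Their mean level was 0.57, 0.53, 0.23, -0.04 and 0.50 in the 54 µg lungs, against 0.11, -0.06, 0.15, 0.29 and 0.27 in the 18 µg lungs. The groups overlapped, with the 54 µg replicate 4 array below 4 of the 5 at 18 µg. The median was 0.16 and 0.14 without the 54 µg replicates 1 and 2, and 0.14 without the 18 µg replicate 2 array. Cr2, the complement receptor of B cells, differed by 0.50 ± 0.22 (0.39 by another probe) and the inhibitory lectin Cd22 by 0.28 ± 0.14. Among lysosome and lipid genes of macrophages 23 of 33 lay above 0 with a median of 0.08. It was 0.02 and 0.13 without the 54 µg replicates 1 and 2, 0.04 and 0.12 without the 18 µg replicates 2 and 3, and 0.03 (19 of 33 above 0) with slide as a block. In limma 1 gene was at an unadjusted p under 0.05, against 3.12% of all units. Without the 18 µg replicate 3 array 6 were, against 2.62% of all units. The protease Ctsk had 0.51 ± 0.24 and the lipid receptor Trem2 0.55 ± 0.31, and in both the 18 µg replicate 3 array stood far above its group, at 1.02 and 1.62. Without it Ctsk differed by 0.74 and Trem2 by 0.88, and without the 54 µg replicate 1 array Ctsk differed by 0.40 and Trem2 by 0.32.

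**Figure D4:**
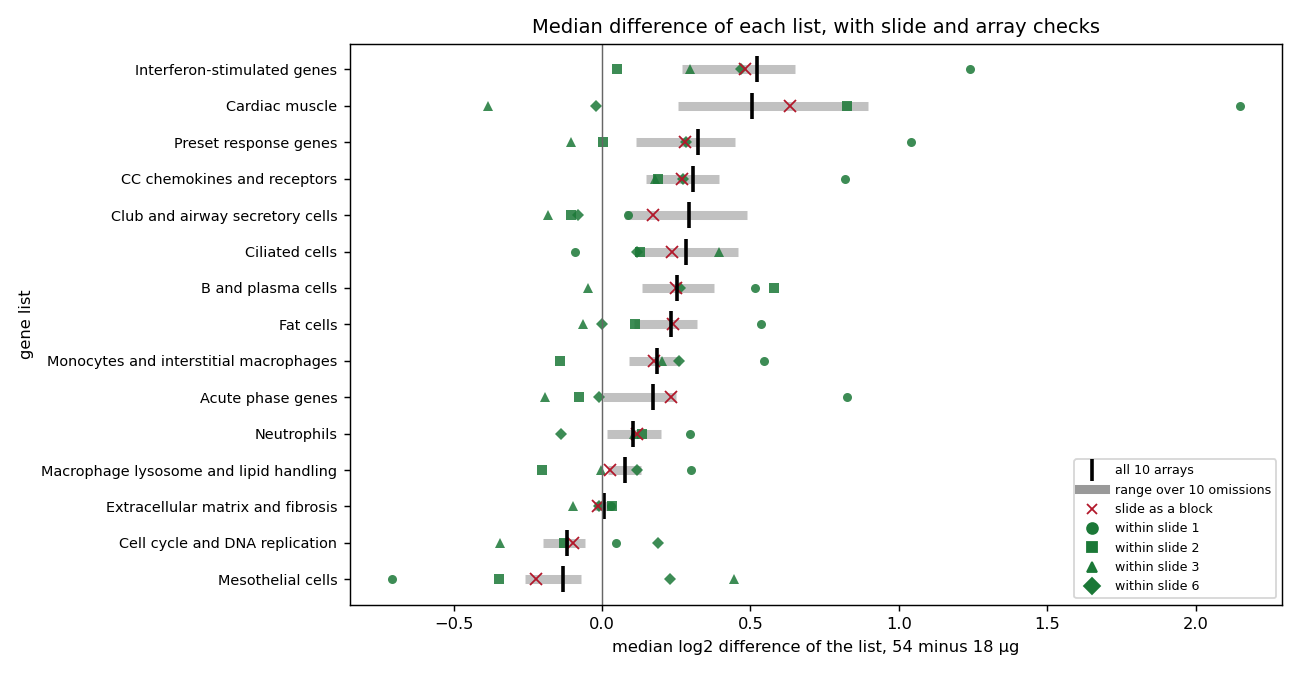
Median log2 difference, 54 minus 18 µg, of 15 gene lists (horizontal axis). Black bars use all 10 arrays, grey bands give the range when each array is left out in turn, red crosses use slide as a block and green symbols are the differences within slides 1, 2, 3 and 6. The interferon median is 0.52 in all arrays and 0.05 to 1.24 within slides, and the cardiac median runs from -0.39 to 2.15 within slides.

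At the lower end, 12 named genes with the smallest p and a lower mean at 54 µg were described. Xlr3b, an X-linked lymphocyte-regulated gene of a family with near-identical copies, stood at -0.15, 0.69, -0.38, -0.41 and -0.85 in the 54 µg lungs, against 1.35, 1.63, 1.52, 0.47 and 0.90 in the 18 µg lungs. The 54 µg replicate 2 array lay above the lowest 18 µg array, and the other 54 µg arrays lay below all 18 µg arrays. The difference was -1.39 ± 0.32, a 2.62-fold lower level (limma, unadjusted p = 0.00016, adjusted p = 0.9999), and a second probe gave -1.52. It was -1.62 to -1.23 over the omissions and -1.50, -0.88, -0.85 and -1.75 within slides 1, 2, 3 and 6. Control lungs stood from -0.34 to 0.44, so all 5 of the 18 µg lungs were above every control.

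Xlr4a and Xlr4b lie in the same X-linked cluster. Xlr4a stood at 0.09, 0.64, -0.17, 0.28 and -0.38 in the 54 µg lungs, against 0.62, 1.32, 1.65, 0.22 and 1.11 in the 18 µg lungs, a difference of -0.89 ± 0.24 (-0.68 by another probe). Xlr4b stood at 0.13, 0.63, 0.78, 0.03 and -0.14 in the 54 µg lungs, against 0.75, 1.21, 1.96, 0.34 and 0.99 in the 18 µg lungs, a difference of -0.76 ± 0.26. The groups overlapped in both genes, and the 18 µg replicate 4 array was the lowest of its group for all 3 genes. With NRCWE-044 the step between the doses of Xlr3b ran the other way, at 0.63 ± 0.31, and with NRCWE-045 it was -0.39 ± 0.37. The difference of the Xlr3b steps between NRCWE-043 and NRCWE-044 had an unadjusted p of 8.85e-05 in limma and an adjusted p of 0.9999. Xlr genes were not on any list.

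The other 10 of the 12 had smaller differences. The mitochondrial thioesterase Acot2 stood at -0.29, -0.13, -0.06, 0.06 and -0.32 in the 54 µg lungs, against 0.15, 0.17, 0.17, 0.24 and 0.27 in the 18 µg lungs. The groups did not overlap, as in 0.188% of all units, and the difference was -0.35 ± 0.10. Lrpap1, the chaperone of lipoprotein receptors, differed by -0.30 ± 0.09 (-0.13 by another probe), Ercc6, which repairs DNA in transcribed genes, by -0.25 ± 0.07, and Fcgrt, the neonatal Fc receptor, by -0.33 ± 0.11. The activin binder Fstl3 differed by -0.39 ± 0.13, the spliceosome-associated chaperone Dnajc8 by -0.27 ± 0.09 and the palmitoyl transferase Zdhhc17 by -0.31 ± 0.10, where 2 other probes gave 0.25 and 0.29.

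In the actin-severing protein Dstn, the nucleotide kinase Nme1 and the prenyl-binding Pde6d the difference rested more on the 54 µg replicate 2 array, which stood at -0.60, -0.82 and -0.54. They differed by -0.32 ± 0.10, -0.34 ± 0.11 and -0.28 ± 0.09, and without that array Nme1 differed by -0.18, Dstn by -0.20 and Pde6d by -0.20. By size the 5 lowest named genes above background on all 10 arrays were Xlr3b, Angptl4, Xlr4a, Xlr4b and Fbp1. Angptl4, a secreted inhibitor of lipoprotein lipase, stood at -0.49, -0.56, 0.07, 1.13 and -1.30 in the 54 µg lungs, against 0.27, 0.94, 1.07, 0.73 and 0.85 in the 18 µg lungs. The 54 µg replicate 4 array was the highest of all 10, and the difference was -1.0 ± 0.43. Fbp1, an enzyme of gluconeogenesis, differed by -0.68 ± 0.91 on the strength of 1 array, the 18 µg replicate 3 at 4.58, and by 0.30 without it.

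**Figure D5:**
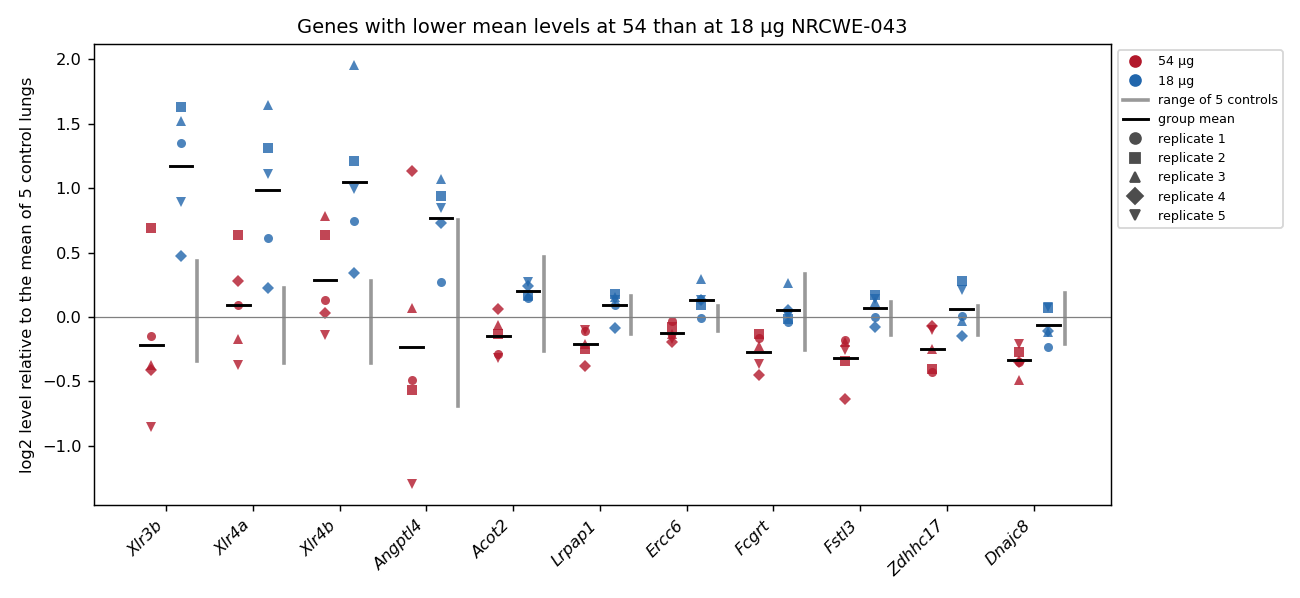
Log2 level of 11 genes with a lower mean at 54 than at 18 µg, relative to the mean of the 5 control lungs (vertical axis), with the 5 arrays at 54 µg in red (left) and the 5 at 18 µg in blue (right). Symbols mark replicates, black bars group means and grey lines the control range. The 18 µg arrays of Xlr3b, at 0.47 to 1.63, lie above all controls.

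Genes of the cell cycle, of mesothelial cells and of the extracellular matrix had medians near 0 or below. Of 29 cell cycle genes 4 lay above 0, with a median of -0.12. Their mean level was 0.05, 0.18, -0.02, 0.01 and 0.07 in the 54 µg lungs, against -0.01, 0.22, 0.41, 0.31 and -0.11 in the 18 µg lungs, so the groups overlapped. The median was -0.06 without the 18 µg replicate 3 array, -0.08 without replicate 4 and -0.20 without replicate 5. On slides 1, 2, 3 and 6 the cell cycle median was 0.05, -0.13, -0.345 and 0.19, so slides differed in its sign. The mitotic genes Cdc20, Kif23 and Tpx2 differed by -0.30 ± 0.20, -0.24 ± 0.19 and -0.24 ± 0.19. Mesothelial genes had 3 of 15 above 0 and a median of -0.13, with Upk3b at -0.47 ± 0.33 and the keratin Krt8 at -0.32 ± 0.18. The median was -0.07 and -0.24 without the 54 µg replicates 1 and 3, -0.08 and -0.26 without the 18 µg replicates 1 and 5, and -0.22 with slide as a block. Upk3b differed by -0.27 without the 54 µg replicate 1 array. Within slides the mesothelial median was -0.71, -0.35, 0.44 and 0.23 on slides 1, 2, 3 and 6, so its sign was not shared. Extracellular matrix and fibrosis genes had 15 of 30 above 0 and a median of 0.01 (-0.03 to 0.02 over the omissions), with mean levels of -0.02 to 0.18 at 54 µg and 0.03 to 0.21 at 18 µg.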

How the data were processed

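The intensity values are the deposited spot and local background medians of both channels, extracted by the authors with Agilent Feature Extraction 11.0.1.1, per the file headers, with flags for background and irregular spots. The values deposited as the series table came from the authors too and were read as log2 ratios. No source used here states their scale, centring or direction. They correlated with the log2 ratio of the processed signals, Cy5 over Cy3, at 0.867 to 0.907, so they ran in the same direction. Their median per array was -0.0414 to -0.00406. They served as an alternative. Lung RNA was Cy5 on every array, per the labels, with no dye swap.

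Medians were background-corrected with normexp (offset 50) and loess-normalized within each array in limma 3.58.1 (R 4.3.3). Control spots and flagged outlier spots were left out, and spots of one probe were averaged. Each named gene was read by its probe with the brightest mean lung signal, and the 28446 of 55681 probes without a symbol stayed unnamed. Units well above background on at least 3 arrays were kept. One limma model of 7 group means over 34 arrays gave the tests, with Benjamini-Hochberg adjustment at 0.05. The code was tested on simulated data. The number of arrays limits the precision.

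The alternatives covered the background correction, normalization, filter, slide, weights, probe choice and each array left out. Named genes were the 12 higher and 12 lower with the smallest p, the 3 with the smallest p in each gene list, the 15 response genes and the 5 largest differences each way, the first and last of these among genes above background on all 10 arrays. Genes outside it are said to be chosen later. The genes and lists were chosen with earlier results of these data known. Replicates are numbered in deposit order. Promoter sequences are from RefSeq.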

Additional observations from a re-analysis of the deposited data

Results flagged for a closer look

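The 82 genes and 15 lists were each read at both doses, which gave 194 groups of 5 values. In 19 of the 194 the gap between 1 array and its nearest neighbour took more than 0.71 of the group's range. For a single group chance gives about 1 in 20. Many of the genes were chosen by their values in these data, and the lists share members with them. The 19 therefore cannot be set against that rate. Values are log2 levels relative to the control lungs. At 54 µg, replicate 1 stood apart in Oas2 at 2.37, Rsad2 at 2.18, Irf7 at 2.2, Aif1 at 0.999 and Col1a1 at 0.337, and in the mean of the interferon list at 1.33 and of the CC chemokine list at 1.21. Replicate 2 at 54 µg stood apart in Nme1 at -0.821 and Pde6d at -0.541, and replicate 4 in Eomes, a transcription factor of cytotoxic lymphocytes, at -0.186.

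At 18 µg every such value was of replicate 3. It stood at 0.726 for Ly6i, 0.513 for Nme1, 4.58 for Fbp1, 1.88 for Ccl7, 2.63 for Ccl24, 1.02 for Ctsk, 1.62 for Trem2 and 2.08 for the neutrophil chemokine receptor Cxcr1. The mean of the macrophage lysosome and lipid list stood at 0.465 there. That array also had the lowest array quality weight of the 10, at 0.476.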

How the results depend on the processing

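No unit passed the adjusted threshold in limma under any of 14 alternative fits of the comparison or with any of the 10 arrays left out. The number at an unadjusted p under 0.05, 915 in all arrays (3.12%), was 1463 with slide as a fixed block and 1430 as a random block. It was 1515 on the 9 arrays of slides with both doses. Over the omissions it ran from 709 to 1573, the highest without the 18 µg replicate 1 array, and was 1413 without the 18 µg replicate 4 array. Among units above background on all 10 arrays it was 599 of 19791 (3.03%), fewer units at a similar share. For the difference of steps from NRCWE-044, 820 units (2.8%) became 1376 and 1309 with slide as a fixed and a random block. With the stricter filter, which tests fewer units, the number was 478 of 19233 (2.49%). From NRCWE-045, 870 (2.97%) became 1358 and 1361 with those blocks and 458 of 19489 (2.35%) with that filter. It was 1486 without the NRCWE-045 54 µg replicate 4 array. Of 82 genes 75 kept their sign in every fit, single slides aside. Ifi35 was 0.0218 in the Cy5 channel alone, 0.0508 and 0.0328 with slide as a fixed and a random block, 0.0401 on the 9 arrays, 0.0291 with array weights and -0.0851 to 0.0758 over the omissions. Gbp2 was 0.0163 on the 9 arrays, 0.00874 with array weights and -0.12 to 0.0458 over the omissions. Zdhhc17 was 0.0778 as the mean of its probes. Il1b was -0.0518 from processed signals, -0.0166 in the Cy5 channel and -0.12 to 0.26 over the omissions. Fbp1 ran from -1.0 to 0.30 over the omissions, Cxcl1 from -0.0020 to 0.66 and Tnf from -0.034 to 0.22. The cause was not tested. Aquantile leaves ratios unchanged by construction. No paired analysis was possible because the replicate numbers follow the order of deposit and pair no arrays, so slide, which holds both doses on 4 slides, served as the block.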
